A study of Brassica napus with 3 samples.

Results

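Chromosomes A10 and C09 of rapeseed (Brassica napus) were compared for the binding sites of BnaC3.LFY. The peaks were all rows of the deposited list that lie on either chromosome. They numbered 5763 of 62949 (9.16%), with 1429 on A10 and 4334 on C09. The list was made by DAP-seq (DNA affinity purification followed by sequencing). For this, sheared genomic DNA stripped of chromatin is mixed with a transcription factor produced in vitro, and the bound fragments are sequenced. The study had 2 DAP libraries of BnaC3.LFY and 1 input library, all made from genomic DNA of a tissue that the labels call both shoot apices and inflorescence. No genotype, plant age or treatment is given in the labels, and whether the replicates were separate plants or protein preparations is not stated there. The authors deposited 1 peak list for all libraries, so no value below has an error between replicates and the sequencing depth is unknown. Errors are counting intervals at the 95% level or the spread over the other chromosomes, and no test between A10 and C09 was made. Counting intervals treat peaks as independent. The variance of peaks per 100 kb was 2.68 times its mean on A10 and 1.69 times on C09, so these intervals are too narrow. Whether an interval includes 0 or overlaps another is therefore a description and not a test.

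LEAFY, found only in plants, is a transcription factor through which new primordia become flowers instead of shoots, in part by switching on floral homeotic genes. Rapeseed is an allotetraploid that unites the A subgenome of Brassica rapa with the C subgenome of Brassica oleracea. Chromosomes of common descent in the A and C subgenomes are called homoeologous, and A10 is homoeologous to a part of C09 only. The sample titles and the design text name DAP, while the series title names ChIP-Seq, and the values were taken as DAP-seq. DAP-seq reads binding to sequence, with any methylation the extracted DNA still carries, and without nucleosomes.

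A10 carried fewer peaks per Mb than C09 along with fewer strong peaks. A10 held 53.9 peaks per Mb (95% Poisson interval 51.1 to 56.7) over a span of 26.5 Mb, against 67.6 per Mb (65.6 to 69.7) on C09 over 64.1 Mb. Spans were measured to the last base of the final peak on each chromosome. The difference of -13.8 per Mb (95% counting interval -17.2 to -10.3) was wider than the SD over the other A chromosomes (66.0 ± 6.66 per Mb, n = 9) and over the other C chromosomes (67.0 ± 2.85, n = 8). A10 stood lowest of all 19 chromosomes, which was known when it was chosen, and C09 ranked 12 from the lowest. A08 was next lowest at 57.4 per Mb (95% Poisson interval 54.5 to 60.3), an interval that overlaps that of A10. Peaks covered 2.05% of the A10 span and 2.70% of the C09 span. Among 7 pairs of chromosomes set side by side (A01 to A05 with C01 to C05, A07 with C06, and A10 with C09), the A to C ratio of density was 0.796 for A10 over C09. In the other 6 pairs it ran from 0.870 for A03 over C03 to 1.06 for A04 over C04.

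The low density of A10 was concentrated in 1 stretch. In bins of 1 Mb, A10 fell to 5, 4, 2, 2, 2 and 17 peaks in the 6 consecutive bins from 7 to 13 Mb. All 20 other full bins of A10 held 45 to 90 peaks. C09 had a shorter stretch of this kind, with 4, 0 and 8 peaks in the 3 bins from 32 to 35 Mb, while its other 61 full bins held 36 to 96 peaks. The bins with most peaks on A10 were those starting at 14 Mb (90 peaks), 19 Mb (84) and 24 Mb (82). On C09 they were those starting at 19 Mb (96), 14 Mb (92) and 48 Mb (92). Full bins of 1 Mb had a median of 65.5 peaks on A10 (26 bins) and 71 on C09 (64 bins).

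**Figure D1:**
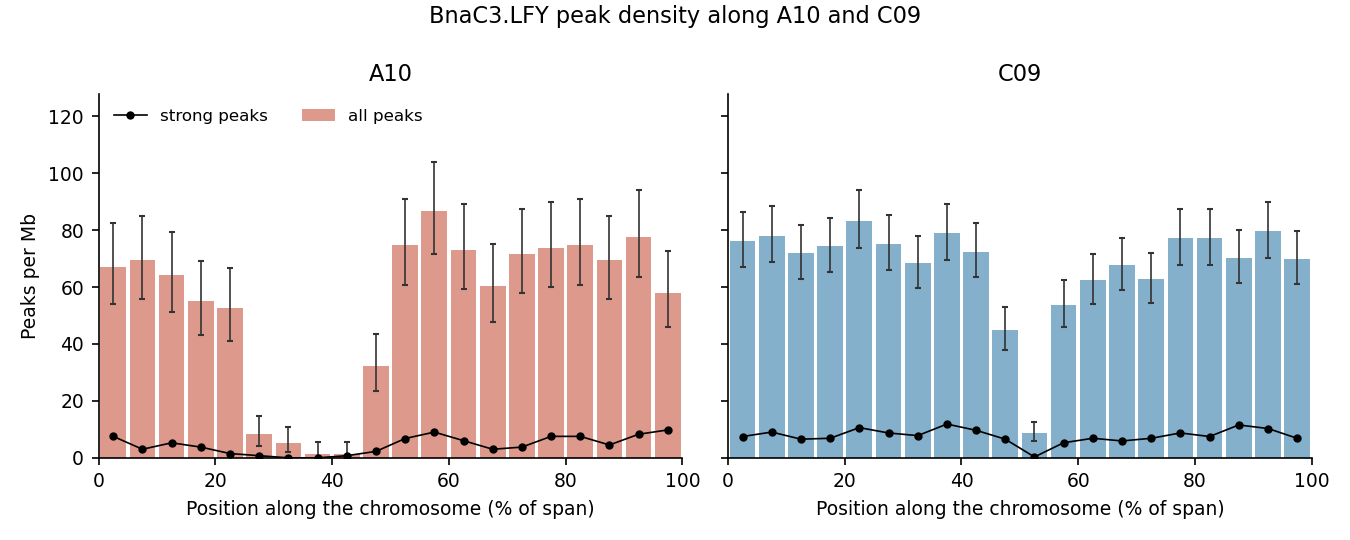
Peaks per Mb (bars, with 95% Poisson intervals) and strong peaks per Mb (black line) in 20 equal parts of the span of A10 (left) and C09 (right); the x axis is the position in percent of the span. On A10 the 4 parts from 25 to 45% of the span held 1.51 to 8.29 peaks per Mb, while on C09 a single part, from 50 to 55%, lay below 10 per Mb, at 8.74.

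The sparse stretch was a larger fraction of A10 than of C09. A bin was called sparse below 20 peaks, a limit set after the counts had been seen and applied to every chromosome. Sparse bins took up 22.6% of the A10 span, the highest share of the 19 chromosomes, and 4.68% of the C09 span. On the other A chromosomes the share was 10.7 ± 4.27% (4.29 to 18.4%, n = 9), and on the other C chromosomes it was 5.12 ± 3.04% (0 to 9.01%, n = 8). The 18.4% was that of A08, and A08 came closer to A10 at other limits. With a limit of 10 peaks the share was 18.4% on A08 and 18.8% on A10. With limits of 30 and 40 it was 22.1% on A08 and 22.6% on A10. The A10 stretch held 32 peaks in 6 Mb, or 5.33 per Mb (95% Poisson interval 3.65 to 7.53). The C09 stretch held 12 in 3 Mb, or 4.0 per Mb (2.07 to 6.99).

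The gap in density was smaller outside the sparse bins. Leaving these bins out removes a larger share of A10 than of C09 and does so by their own low counts, which narrows the gap by construction, so the values are a description only. A10 then held 68.1 peaks per Mb (95% Poisson interval 64.5 to 71.7) and C09 70.8 (68.7 to 72.9). The difference was -2.71 per Mb (counting interval -6.84 to 1.51). The other A chromosomes held 73.3 ± 5.76 and the other C chromosomes 70.4 ± 1.48 per Mb outside their own sparse bins. A10 was then second lowest of the 10 A chromosomes, above A03 at 67.7. With a limit of 10 peaks the difference was -5.09 per Mb (-9.09 to -0.995), an interval that lies below 0. It was -2.71 with a limit of 30 and -3.29 (-7.43 to 0.940) with a limit of 40, and A10 was again the lowest A chromosome under each of these 3 limits. Leaving out only the intervals of 500 kb or more without a peak gave 59.9 peaks per Mb on A10 and 71.0 on C09. That difference was -11.1 per Mb (counting interval -14.8 to -7.26), and A10 was then still the lowest of the 19 chromosomes.

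Strong peaks were less dense on A10 than on C09 with and without the sparse bins. They are the 10% of peaks on the 19 chromosomes with the highest fold enrichment, from 16.1-fold upwards. A10 held 121 of them, 8.47% of its peaks (95% Wilson interval 7.13 to 10.02%), and C09 held 498, or 11.5% (10.6 to 12.5%), where 10% of all chromosome peaks are strong by construction. The share was 8.43 ± 0.704% on the other A chromosomes (n = 9) and 11.1 ± 0.275% on the other C chromosomes (n = 8). Strong peaks per Mb numbered 4.56 on A10 (95% Poisson interval 3.78 to 5.45) and 7.77 on C09 (7.10 to 8.49). Outside the sparse bins the densities were 5.75 (4.76 to 6.88) on A10 and 8.15 (7.45 to 8.90) on C09, a ratio of 0.705 against 0.587 over the whole spans. The difference outside the sparse bins was -2.41 per Mb (counting interval -3.65 to -1.07). Weaker peaks stood at 62.3 per Mb on A10 and 62.6 per Mb on C09 outside the sparse bins, a ratio of 0.995 against 0.824 over the whole spans. Both ratios were thus higher without the sparse bins, and that of the strong peaks was the lower one in each case. The A10 value for strong peaks lay within the range of the other A chromosomes (5.52 to 6.90, n = 9), and the C09 value lay just above that of the other C chromosomes (7.64 to 8.09, n = 8). In this measure A10 and C09 thus differed in the same direction as the other A and C chromosomes, whose ranges do not overlap.

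**Figure D2:**
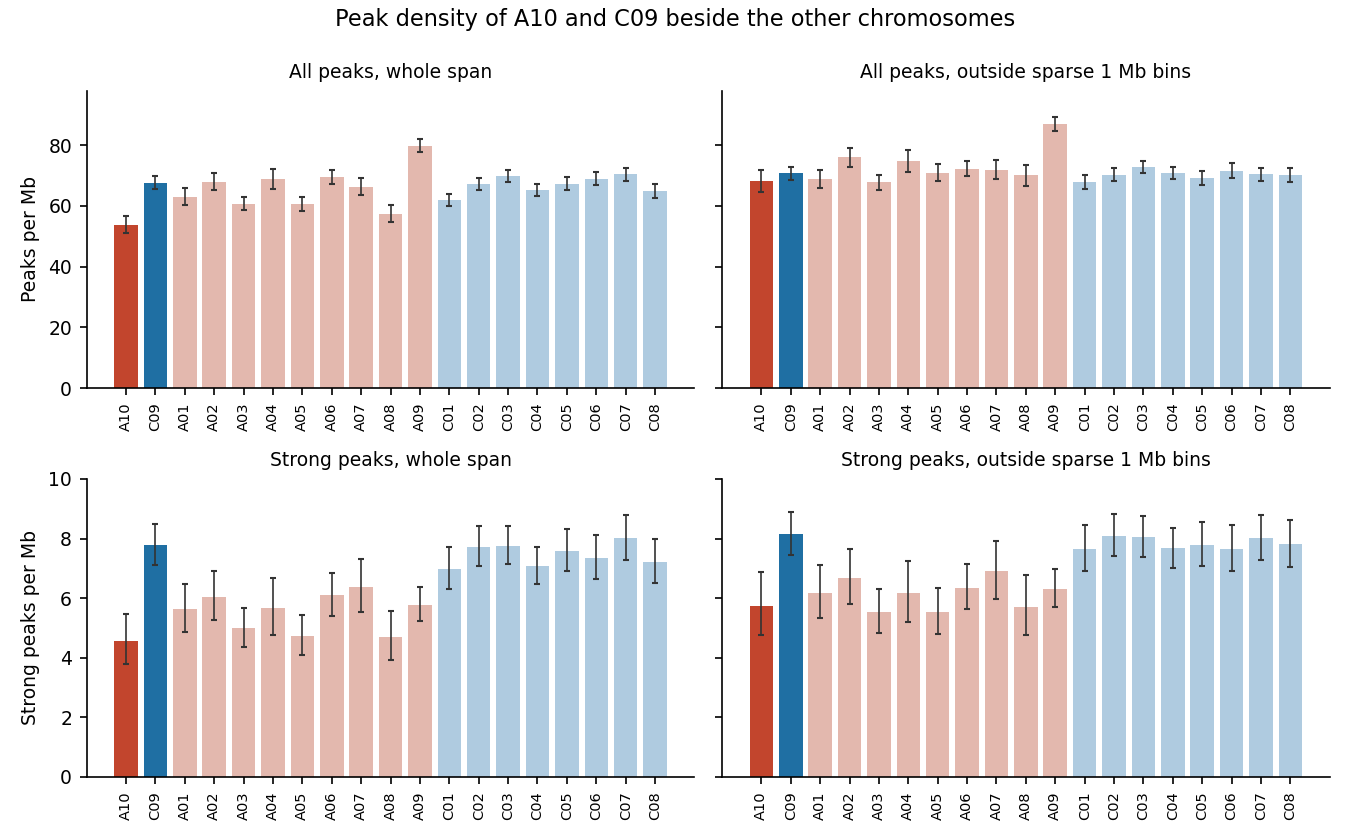
Peaks per Mb (top) and strong peaks per Mb (bottom) on each chromosome, over the whole span (left) and outside 1 Mb bins of fewer than 20 peaks (right); bars are 1 chromosome each with 95% Poisson intervals, A10 and C09 in dark colours. Density was 53.9 on A10 and 67.6 on C09 over the whole span and 68.1 and 70.8 outside sparse bins, and strong peaks stood at 4.56 on A10 and 7.77 on C09 over the whole span and at 5.75 and 8.15 outside sparse bins.

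The ratio of A10 to C09 was lower among stronger peaks, though it did not fall at each step. Below 4-fold, A10 held 7.35 and C09 7.62 peaks per Mb, a ratio of 0.965. From 4- to 6-fold the values were 21.1 and 24.3 per Mb, with a ratio of 0.870. The ratio was 0.804 from 6- to 8-fold, 0.758 from 8- to 10-fold and 0.692 from 10- to 15-fold. From 15- to 20-fold it was 0.564, with 61 peaks on A10 and 261 on C09. From 20- to 30-fold it was 0.647, above the class before it. At 30-fold and more, A10 held 21 peaks, or 0.792 per Mb (95% Poisson interval 0.490 to 1.21), and C09 held 119, or 1.86 per Mb (1.54 to 2.22), a ratio of 0.426. At 50-fold and more the chromosomes held 5 and 17 peaks, or 0.188 per Mb on A10 and 0.265 per Mb on C09, a ratio of 0.710 that rests on few peaks. The other A and C chromosomes differed in a like way, with means of 8.20 and 7.90 per Mb below 4-fold and of 1.10 and 1.72 per Mb at 30-fold and more. A10 lay below the other A chromosomes' range in the classes from 4 to 20-fold, and within it below 4-fold and above 20-fold.

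**Figure D3:**
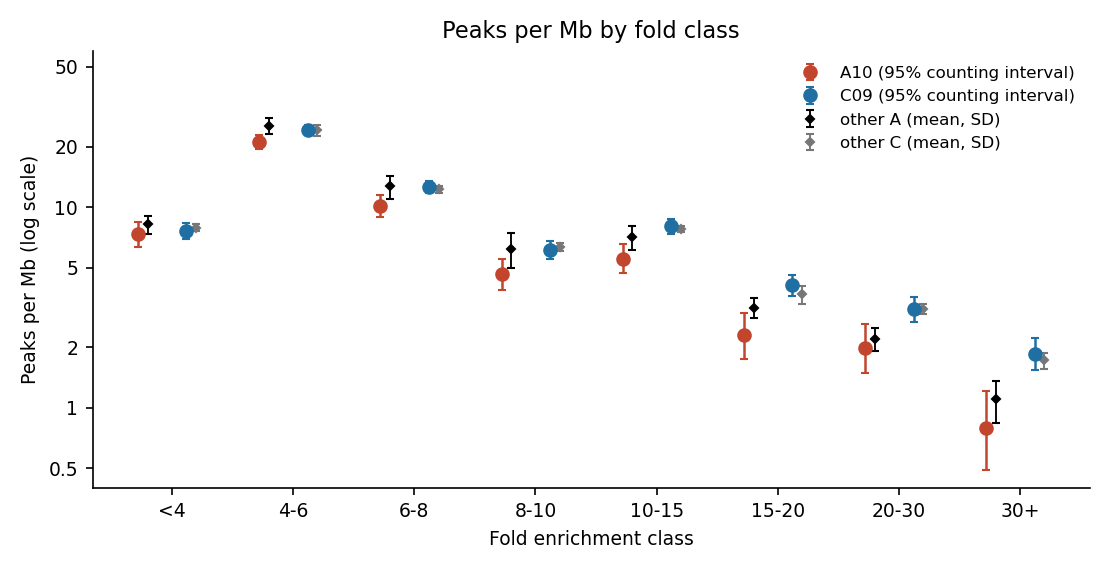
Peaks per Mb (log scale) in 8 classes of fold enrichment for A10 and C09 (large points, 95% Poisson intervals) and the mean ± SD of the other A (n = 9) and other C chromosomes (n = 8). C09 lay within the range of the other C chromosomes in all 8 classes, and the gap between A10 and C09 widened from a ratio of 0.965 below 4-fold to 0.426 at 30-fold and more.

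Median values of the peaks differed less than the upper part of their range. The median fold was 5.79 on A10 (95% interval of the median from order statistics 5.62 to 5.98) and 6.22 on C09 (6.09 to 6.32). The upper quartile was 8.75 on A10 and 10.1 on C09, and the 90th percentile was 14.5 on A10 and 17.3 on C09. The 10th percentile was nearly the same, at 3.84 on A10 and 3.92 on C09. On the other A chromosomes the upper quartile was 8.92 ± 0.215 (8.66 to 9.32) and the 90th percentile 14.8 ± 0.512 (14.0 to 15.7), ranges that take in A10. On the other C chromosomes they were 9.83 ± 0.137 (9.63 to 9.96) and 17.1 ± 0.261 (16.5 to 17.3). The upper quartile of C09 lay above the first of these ranges. The median -log10 q was 9.49 on A10 (9.10 to 10.01) and 10.6 on C09 (10.2 to 10.9). A -log10 q of at least 10 was reached by 677 peaks of A10 (47.4%) and 2261 of C09 (52.2%), against 50.7% of all chromosome peaks. The other A chromosomes had a median -log10 q of 9.72 ± 0.189 (n = 9) and the other C chromosomes one of 10.5 ± 0.175 (n = 8). Their median fold was 5.94 ± 0.135 on the other A and 6.17 ± 0.0605 on the other C chromosomes. Within its own subgenome A10 had the third lowest median fold and C09 the second highest.

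The strongest peaks of both chromosomes reached similar fold enrichment. All positions are on the Westar v0 assembly, as the sequence names in the list give it, counted from 1, and fold and -log10 q are the authors' own values for each peak. On A10 the strongest peak lay from 17019115 to 17019932 and had a fold of 69.5. It was followed by a peak from 24527245 to 24528554 with a fold of 66.2, which at 1310 bp was also the widest of A10. The third ran from 20676871 to 20677448 (fold 57.6), and the fourth lay close by, from 20649384 to 20649933 (fold 56.0). The fifth ran from 19002453 to 19003081 with a fold of 53.6. All 5 lay beyond the sparse stretch, at 64.2 to 92.5% of the span.

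On C09 the strongest peak lay from 10243743 to 10244384 and had a fold of 71.2. Only 159 bp separated it from the fifth strongest, from 10243033 to 10243583 with a fold of 62.3, so 2 of the 5 strongest sites of C09 form a pair. The second ran from 27355792 to 27356359 (fold 69.3), the third from 25072658 to 25073392 (fold 65.3) and the fourth from 41099722 to 41100298 (fold 63.8). The other 5 of the 10 strongest started at 3585931, 59303064, 11541800, 24179863 and 15109975 and had folds of 60.9, 60.1, 59.1, 58.1 and 57.4. They were spread over the chromosome, with 8 of the 10 before the sparse stretch and 2 after it. Each of these 15 peaks of A10 and C09 carried the averaging sign, defined as a fractional score or a value with more than 6 significant digits. The sign does not set them apart, since its share was higher among peaks of higher fold. At 50-fold and more it was 100% on both chromosomes (5 peaks on A10, 17 on C09). At 20-fold and more it was 91.9% of 74 peaks on A10 and 94.6% of 317 on C09. Below the lower quartile of fold it was 26.8% on A10 and 29.0% on C09. Which genes lie near the 15 peaks was not analysed here, because the gene table at hand describes another assembly.

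Peaks were denser toward the ends than in the middle on both chromosomes, and the contrast was larger on A10. With the outer 20% of the span on each side as ends, A10 held 66.9 peaks per Mb in its ends (95% Poisson interval 62.1 to 72.0) and 45.2 in its middle (41.9 to 48.6), a ratio of 1.48 (counting interval 1.33 to 1.65). C09 held 74.6 in its ends (71.3 to 78.1) and 63.0 in its middle (60.5 to 65.5), a ratio of 1.19 (1.12 to 1.26). With ends of this size, and with ends of 10% (1.35), A10 had the highest ratio of the 19 chromosomes. With ends of 30% its ratio of 1.47 was below those of A01 (1.54) and A05 (1.51), and with ends of 5% its ratio of 1.18 was below that of A08 (1.22). With ends of 20% the ratio was 1.07 ± 0.237 on the other A chromosomes (0.606 to 1.45, n = 9) and 1.10 ± 0.150 on the other C chromosomes (0.827 to 1.27, n = 8). Without sparse bins, the ratio was 0.966 on A10 and 1.10 on C09, so the ends of A10 were then no denser than its middle. The sparse stretch of A10 lies in the middle as defined here, and so does that of C09.

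The 2 sides of the sparse stretch of A10 differed. From 0 to 7 Mb A10 held 416 peaks, or 59.4 per Mb (95% Poisson interval 53.9 to 65.4), and from 13 Mb to the end of its span it held 981, or 72.5 per Mb (68.1 to 77.2). Strong peaks stood at 4.14 per Mb (2.77 to 5.95) before the stretch and 6.58 per Mb (5.28 to 8.10) after it, with intervals that overlap. On C09 the order was turned round and the gap was smaller, with 72.4 peaks per Mb (69.5 to 75.4) before 32 Mb and 68.9 (65.9 to 72.0) after 35 Mb. Strong peaks of C09 stood at 8.53 per Mb (7.55 to 9.61) before and 7.74 per Mb (6.76 to 8.82) after its sparse stretch. The median peak lay at 61.7% of the span on A10 and at 44.8% on C09.

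Strength varied less than density between ends and middle. Strong peaks made up 9.30% of the peaks in the ends of A10 (95% Wilson interval 7.37 to 11.7%) and 7.65% in its middle (5.92 to 9.83%). On C09 they made up 11.1% in the ends (9.75 to 12.6%) and 11.8% in the middle (10.6 to 13.2%). On each chromosome the intervals of ends and middle overlap. The median fold was 5.86 in the ends of A10 and 5.74 in its middle, and 6.15 in the ends of C09 and 6.26 in its middle. The median width was 362 bp in the ends of A10 and 348 bp in its middle, against 361 bp and 366 bp in the ends and the middle of C09. The last 5% of the A10 span had the highest share of strong peaks of any of its 20 parts with more than 2 peaks, 16.9% of 77 peaks.

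Peak-free intervals showed the same contrast at finer scale. A10 had 2 intervals of 500 kb or more without a peak, 1.39 Mb from 10413876 to 11804117 and 1.29 Mb from 9095708 to 10381782. Only 2 peaks lay between them, with folds of 6.27 and 12.6. The third longest interval of A10 was 0.488 Mb, from 12178592 to 12666498. C09 had 3 such intervals, 1.88 Mb from 32403098 to 34282321, 0.614 Mb from 34282567 to 34896901 and 0.530 Mb from 31653768 to 32184085. A single peak of 245 bp, with a fold of 5.47, stood between its first and its second. The lengths add up to 2.68 Mb or 10.1% of the A10 span, and to 3.02 Mb or 4.72% of the C09 span.

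At shorter lengths the chromosomes parted further. From 200 kb upwards A10 had 10 peak-free intervals that took up 20.1% of its span, and C09 had the same 3, at 4.72%. All but 1 of the 10 on A10 lay between 7314950 and 12666498, and the other ran from 4460409 to 4714675. From 100 kb upwards A10 had 21 (25.7% of its span) and C09 19 (7.64% of its span). The share of A10 in intervals of 100 kb or more was the highest of the 19 chromosomes. At longer lengths A08 exceeded it, with 20.2% against 20.1% on A10 from 200 kb, 20.2% against 16.4% from 300 kb and 18.4% against 10.1% from 500 kb. Gaps in the assembly were not located here, and their part in these intervals was not tested.

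**Figure D4:**
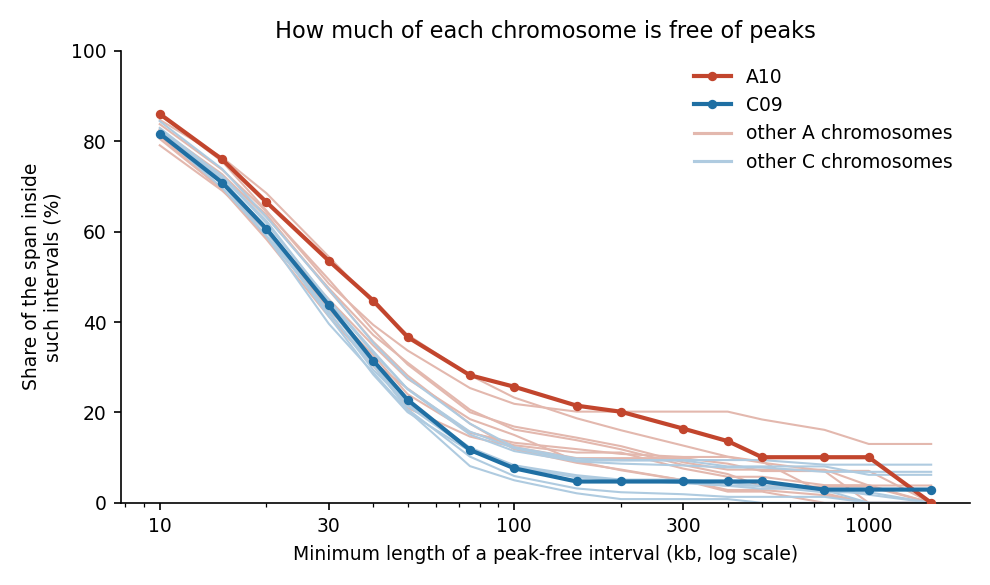
Share of the span (y axis, percent) that lies in peak-free intervals of at least a given length (x axis, kb, log scale), for A10 and C09 (thick lines) and the other A and C chromosomes (thin lines). At 100 kb the share was 25.7% on A10 and 7.64% on C09.

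The few peaks inside the sparse stretch of A10 had a fold close to that of the peaks around it. The 32 peaks of the A10 stretch had a median fold of 6.59 (95% order-statistic interval 5.01 to 7.65; range 3.95 to 19.8), against 5.69 (5.40 to 6.14) before and 5.85 (5.58 to 6.05) after it. Of these, 3 were strong, 2 of them with folds of 19.8 (from 12066808) and 17.6 (from 11808296). The stretch thickens toward its end, since 15 of its 32 peaks lay between 12666499 and 12986013. The 12 peaks of the C09 stretch had a median fold of 5.69 (5.04 to 7.17; range 4.52 to 8.99), and 0 of 12 were strong, where the 95% Poisson interval reaches up to 1.23 strong peaks per Mb. The longest interval without a strong peak was 4.98 Mb on A10, from 6826910 to 11808295 with 18 weaker peaks inside it, and 3.54 Mb on C09, from 31478694 to 35016803 with 29 weaker peaks inside it. On the other A chromosomes the longest such interval was 1.51 to 3.66 Mb, and on the other C chromosomes it was 0.947 to 5.73 Mb.

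Windows of 100 kb gave A10 a more uneven distribution than C09. A10 had 47 of 265 windows without a peak (17.7%) and C09 29 of 640 (4.53%), against 7.67% of the windows of all chromosomes. The share was higher on A08, at 18.1%. Windows of 15 or more peaks were 2 on A10 (0.755%) and 10 on C09 (1.56%), against 2.72% over all chromosomes. A09 alone held 88 of the 254 such windows, and on the other C chromosomes the share was 1.62 ± 0.615% (n = 8). The densest windows of A10 held 15 peaks each and started at 15.6 and 24.5 Mb, and the second of these held 4 strong peaks and the second strongest peak of the chromosome. The densest window of C09, from 19.2 to 19.3 Mb, held 24 peaks of which 0 were strong. The variance of peaks per window over its mean was 2.68 on A10 and 1.69 on C09, each within the range of its own subgenome (2.77 ± 0.856, 1.91 to 4.39, on the other A chromosomes, and 1.76 ± 0.223, 1.38 to 2.02, on the other C chromosomes). Outside sparse bins it was 1.38 on A10 and 1.39 on C09, against 2.09 ± 0.881 on the other A chromosomes (n = 9) and 1.43 ± 0.115 on the other C chromosomes (n = 8).

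Neighbouring peaks were farther apart on A10. The median distance between the edges of neighbours was 9447 bp on A10 and 8437 bp on C09, and the lower quartile was 3602 bp on A10 and 3068 bp on C09. A10 had the longest median distance of all 19 chromosomes, also without sparse bins (9261 bp on A10 and 8433 bp on C09). Edges lay within 500 bp in 45 of 1428 pairs on A10 (3.15%, 95% Wilson interval 2.36 to 4.19%) and in 173 of 4333 on C09 (3.99%, 3.45 to 4.62%), against 5.27% of the pairs of all chromosomes. A09 alone held 688 of the 3280 close pairs of all chromosomes. The share was 3.41 to 12.7% on the other A chromosomes, so A10 was lowest of the 19. On the other C chromosomes it was 4.07 ± 0.306% (n = 8), close to C09. The intervals overlap. Pairs of strong peaks within 500 bp were 0 on A10, with 121 strong peaks, and 6 on C09, with 498. The other A chromosomes had 0 to 3 such pairs and the other C chromosomes 1 to 9, so neither count was unusual for its subgenome. The median distance between successive strong peaks was 123 kb on A10 and 73.7 kb on C09. It was 85.3 to 139 kb on the other A chromosomes, a range that takes in A10. On the other C chromosomes it was 78.8 to 95.5 kb, so C09 had the shortest of the 19.

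The widths of A10 and C09 differed little at the median and more in the upper part of the range. The median width was 355 bp on A10 (95% order-statistic interval 347 to 363) and 364.5 bp on C09 (359 to 369), a difference of -9.5 bp whose interval of -18.7 to 0.208 includes 0. The interval lay below 0 at -log10 q of at least 5 (-18.4 to -0.938) and of at least 10 (-24.8 to -8.40). It also lay below 0 with the averaging sign (-17.4 to -0.789), and it included 0 without the sign (-7.71 to 6.21). The 10th percentile was 253 bp on both chromosomes, whereas the 90th percentile was 522 bp on A10 and 576 bp on C09. Peaks of 800 bp or more numbered 16 on A10 (1.12%, 95% Wilson interval 0.690 to 1.81%) and 114 on C09 (2.63%, 2.19 to 3.15%), against 3.18% over all chromosomes. A10 had the lowest share of such broad peaks of the 19 chromosomes, while C09 had the highest of the C chromosomes. The other A chromosomes ranged from 1.25 to 9.04% and the other C chromosomes from 1.92 to 2.52%. The 16 broad peaks of A10 had a median fold of 18.9 and the 114 of C09 one of 14.5. The widest peak of C09, 1708 bp from 36534187 to 36535894, had a fold of 33.0, and its second widest, 1596 bp from 57379959 to 57381554, had a fold of only 5.31. The second widest of A10, 1135 bp from 14257934 to 14259068, had a fold of 18.7.

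**Figure D5:**
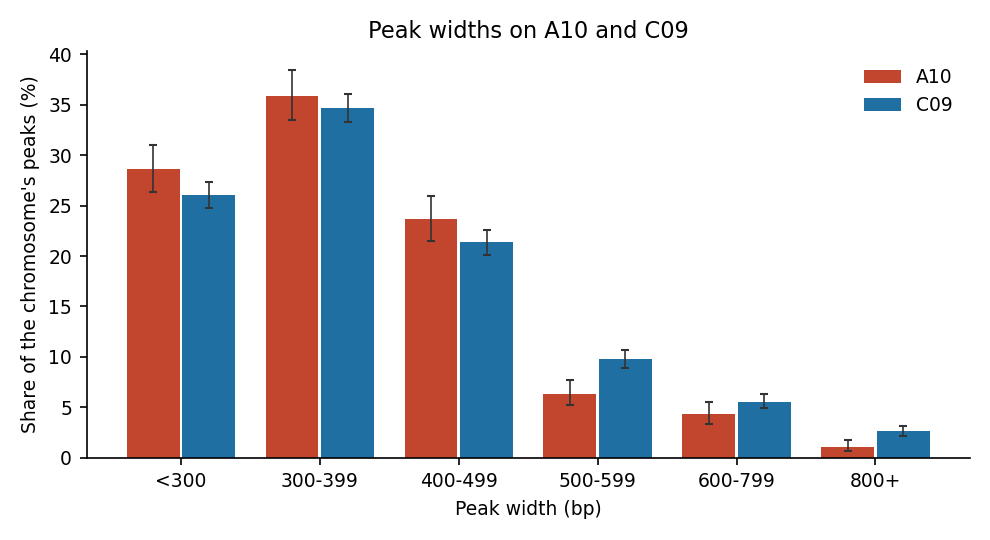
Share of the peaks of A10 and of C09 (y axis, percent, with 95% Wilson intervals) in 6 classes of width (x axis, bp). Classes from 500 bp upwards held smaller shares on A10, with 1.12% at 800 bp or more against 2.63% on C09.

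Width followed fold on both chromosomes. The rank correlation of fold and width over peaks was 0.645 on A10 (1429 peaks) and 0.703 on C09 (4334 peaks), given as a description, since both values come from the same reads. Above the upper quartile of fold the median width was 451 bp on A10 and 492.5 bp on C09, and below the lower quartile it was 281 bp on A10 and 285 bp on C09. The averaging sign was present in 63.1% of the peaks of A10 (95% Wilson interval 60.6 to 65.6%) and 67.0% of those of C09 (65.6 to 68.4%), against 66.6% over all chromosomes. A10 had the lowest share of the 19 chromosomes, though close to the lowest of the other A chromosomes (65.6 ± 2.10%, 63.4 to 69.5%, n = 9). The part of the sign in the other differences was not tested beyond the alternatives given in the closing section.

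A10 was also set against stretches of C09 of its own length, though the low density of A10 was known when it was chosen. Which part of C09 is homoeologous to A10 was not located here, so every stretch of 26.5 Mb was taken, in steps of 500 kb. The 76 stretches, which overlap each other, held 56.1 to 76.0 peaks per Mb, against 53.9 on A10, whose interval of 51.1 to 56.7 takes in the lowest of them. Counted from the start of C09, A10 minus the first part of this length was -21.5 per Mb (counting interval -25.8 to -17.1). A10 minus the second part, which holds the sparse stretch, was -3.54 per Mb (-7.59 to 0.497), an interval that includes 0. It lay below 0 at -log10 q of at least 5 (-7.80 to -0.351) and of at least 10 (-7.35 to -1.63). With the averaging sign it was below 0 too (-9.30 to -2.70), and without the sign it was above 0 (0.101 to 4.81). The 76 stretches held 6.07 to 9.16 strong peaks per Mb, against 4.56 on A10, and their strong share ran from 10.6 to 12.6%, against 8.47% on A10. Their median fold was 6.16 to 6.37, against 5.79 on A10, and their median width 362.5 to 369 bp, against 355 bp on A10. In strong share and median fold the other A chromosomes lay below these stretches too, at 7.24 to 9.64% and 5.76 to 6.14 (n = 9). The stretch of lowest density began at 20 Mb and held the sparse stretch of C09, and the one of highest density began at 1.5 Mb. The variance over the mean per window reached 2.25 in them, below the 2.68 of A10.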

How the data were processed

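The 3 samples, 2 DAP libraries of BnaC3.LFY and 1 input, share 1 peak list on the Westar v0 assembly, so no test over samples was possible. The tools named, per the submitters' processing notes, are MACS2, HOMER, Bowtie2, SAMtools and fastp. Sources used here give neither their versions and parameters nor the way replicates were combined. The deposited list has no header. From the values and the column order, the authors' columns are a score, a fold enrichment (ratio over background), and the -log10 of a p-value and of a q-value. Read depth is unknown, and an interval or floor covers counting error only and treats peaks as independent.

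Rows were split by chromosome, and densities, shares, medians and peak-free intervals were computed with Python 3.11.15, pandas 2.3.3, NumPy 2.4.6 and SciPy 1.17.1. Density intervals are exact Poisson, shares Wilson, medians from order statistics, and differences combine both groups' intervals. Peaks were assigned to bins and windows by their start, and to ends and middle by their centre. Functions were tested on simulated data. A peak carried the averaging sign with a fractional score or more than 6 significant digits. Named regions were the 5 (A10) and 10 (C09) strongest peaks, the 2 widest, the 3 longest peak-free intervals, the densest and emptiest bins and the densest window. Other peaks named were chosen after their values were seen. The chromosomes, measures and limits were chosen with earlier results of these data known. The Westar v0 sequence and annotation were not used here.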

Additional observations from a re-analysis of the deposited data

Results flagged for a closer look

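Dixon's test was run for A10 among the 10 A chromosomes and for C09 among the 9 C chromosomes on 18 measures, 36 tests in all, where chance passes about 1 in 20 groups. It was passed once, by the number of 100 kb windows with at least 20 peaks on C09, which was 1 against 0 on every other C chromosome. Any single window would give this where all others have 0. A10 was lowest or highest of its subgenome in several measures and passed in none. This cannot decide whether A10 stands apart, since the low density of A10 was known when it was chosen. In density, A09 at 79.8 peaks per Mb also widens the range of the A chromosomes that the test divides by.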

How the results depend on the processing

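No paired analysis was possible because 1 merged list was deposited. Of 140 alternative values for 23 results, 91 stayed within the main value's counting interval (or 1.5 times a count or variance ratio), 44 moved and 5 changed direction. All settings of the sparse bins were added after seeing the data. Differences are A10 minus C09.

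At -log10 q of at least 10, A10 held 25.5 peaks per Mb and C09 35.3. The difference in density was -9.77 per Mb, which comes from a shorter list and is not by itself a smaller gap. Median fold differed by -0.764, median -log10 q by -3.00 and broad share by -2.61 points. A10 had 4 peak-free intervals, and A10 minus the first part of C09 of its length was -13.8 per Mb. With the full list the first part gave -21.5 and the second -3.54 (-7.59 to 0.497). Density outside sparse bins differed by -4.67 (-7.55 to -1.71) at this q and by -4.52 (-7.81 to -1.12) with the averaging sign, intervals below 0. Among peaks with the averaging sign, median -log10 q differed by -1.86, broad share by -2.24 points and the first part of C09 by -15.7. Among peaks without the sign A10 held 19.9 peaks per Mb and C09 22.3, a difference of -2.47 per Mb. The differences there were -0.279 points in strong share, -0.0951 in strong density, -0.0820 in median fold and -0.0450 in median -log10 q. There the direction changed for broad share (0.100 points), close neighbours (0.463 points), the second part of C09 (2.45 per Mb) and density outside sparse bins (1.80 per Mb). Strong density outside sparse bins was then -0.0843, the first part of C09 gave -5.81, the ratio of ends to middle on C09 was 1.28, A10 had 4 peak-free intervals and a variance ratio of 1.56. The cause was not tested. Of the C09 peaks above the upper quartile of fold, 94.6% carry the sign, which leaves few strong peaks without it.

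The interval counts were 21 from 100 kb and 10 from 200 kb on A10, and 19 from 100 kb and 1 from 1000 kb on C09. The variance ratio was 5.07 on A10 at 250 kb windows, and 15.97 on A10 and 5.02 on C09 at 1000 kb. Ends of 30% gave C09 a ratio of 1.31. Strong density differed by -1.56 per Mb at the 5% of highest fold and by -5.95 at the 20%, where the share differed by -5.23 points. Close neighbours changed direction within 200 bp (0.0764 points) and differed by -2.60 points within 2 kb. Broad share from 600 bp differed by -2.73 points. Counted from the end, the parts of C09 gave -16.3 and -7.95. Sequencing depth is unknown, so how it limits the weak peaks was not tested. Leaving out a replicate was not possible with 1 list.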
